A study of Mus musculus with 43 samples.

Results

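EKLF regions that were called inside genes in Nan/+ fetal liver, but not in wild type, and that were wider than the narrowest calls are described here. A region qualified when it came from the Nan/+ list, was wider than the narrowest width in that list, shared no base with a WT region, and had its centre inside a protein-coding gene and over 1 kb from both ends of every protein-coding gene. The rule was met by 3051 regions, out of 15564 regions in the Nan/+ list and 24745 in the Nan/+ and WT lists together. The regions were thus selected on measured values, namely overlap with the WT list, width and position, so these measures describe the regions and are not tested.

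EKLF, encoded by Klf1, is a zinc-finger activator of red cell genes that reads CACCC-type sequences and often works near the GATA1-TAL1 complex. It acts at promoters and also at enhancers, many of which lie in introns. Nan is an allele of Klf1 with an amino acid change in a DNA-reading zinc finger, and heterozygotes carry it beside a normal Klf1 allele. The liver is the main site of red cell formation in the mid-gestation embryo.

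Chromatin immunoprecipitation (ChIP) of EKLF was done on E13.5 fetal liver, labelled primary erythroid, from wild-type littermates of the Nan strain (WT) and from Nan/+ embryos, with 3 libraries per genotype and the same antibody, 7B2a. The labels do not say that this antibody tells the Nan protein from the normal one, so regions in Nan/+ can hold either. The 43 samples of the series also cover other assays, which were not used here. Sequencing depth was alike, from 72023512 to 100763687 tags per Nan/+ library and from 74140385 to 103170594 per WT library. Each genotype had 1 list made from its 3 libraries, with no strength per region and no value per library. There is therefore no spread between replicates, no difference between genotypes has a replicate check, and a region missing from the WT list can lie just under its threshold. The lists hold no expression, so the labelled cell type could not be checked by its markers beyond the genes that held regions.

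The rule removes regions centred near the ends of protein-coding genes, where most annotated starts lie, so the share over a start is in large part set by it. Among the qualifying regions, 89 of the 2939 on chromosomes with RefSeq start windows (3.03%, exact binomial 95% interval 2.44 to 3.71) overlapped such a window, the 300 bases from 250 before to 50 after a start. Of the 89, 85 were over an internal start of their own host gene, at a median of 4.81 kb from the 5′ end of that gene, and 23 of the 85 lay over 10 kb from it. In all, 103 of 6671 internal start windows, those inside a gene and over 1 kb from gene ends, were overlapped by these regions (1.54%). That share is counted over windows, so it is not a reference for the 3.03% counted over regions. Among regions above 300 bp the share over a start was 6.64%, and among regions over 5 kb from gene ends it was 1.81%. For comparison, a start window was overlapped by 0.814% of narrow Nan-only regions inside genes (interval 0.582 to 1.11), by 8.92% of WT-only regions inside genes (7.89 to 10) and by 31.3% of shared regions inside genes (27.4 to 35.3).

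The bases that 6 of these regions covered in start windows are printed as examples from erythroid or wide-region genes. The genes were chosen after their values were seen, and all 6 stretches hold a marked match. Each stretch is only the part of its region inside a start window, so the 6 do not stand for the regions as a whole. Sequences come from RefSeq, build GRCm38.p6 (mm10), and run 5′ to 3′ along the gene's strand. Capitals mark matches on either strand to CCNCNCCC, a CACCC-type site of EKLF, or to AGATAA, which is read by GATA1.
Cmip, chr8:117348920-117349219, plus strand: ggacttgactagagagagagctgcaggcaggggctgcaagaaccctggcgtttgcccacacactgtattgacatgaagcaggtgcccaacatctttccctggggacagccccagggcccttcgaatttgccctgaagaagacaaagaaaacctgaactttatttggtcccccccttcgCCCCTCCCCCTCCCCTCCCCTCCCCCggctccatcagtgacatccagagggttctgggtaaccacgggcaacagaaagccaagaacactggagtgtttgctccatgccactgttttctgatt
Gata2, chr6:88198445-88198713, plus strand: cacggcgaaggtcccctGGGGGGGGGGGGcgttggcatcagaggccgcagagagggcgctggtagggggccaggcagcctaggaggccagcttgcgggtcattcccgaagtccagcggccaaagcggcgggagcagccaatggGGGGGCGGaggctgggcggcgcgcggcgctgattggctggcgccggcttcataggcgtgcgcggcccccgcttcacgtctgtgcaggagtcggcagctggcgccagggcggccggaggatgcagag
Sox6, chr7:115846091-115846387, minus strand: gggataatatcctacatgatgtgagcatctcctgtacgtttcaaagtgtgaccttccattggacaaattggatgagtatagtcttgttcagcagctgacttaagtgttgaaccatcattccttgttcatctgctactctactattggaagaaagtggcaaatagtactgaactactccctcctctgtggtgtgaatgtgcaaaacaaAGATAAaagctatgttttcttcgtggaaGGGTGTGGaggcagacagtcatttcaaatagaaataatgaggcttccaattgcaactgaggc
Bcl2l1, chr2:152828440-152828675, minus strand: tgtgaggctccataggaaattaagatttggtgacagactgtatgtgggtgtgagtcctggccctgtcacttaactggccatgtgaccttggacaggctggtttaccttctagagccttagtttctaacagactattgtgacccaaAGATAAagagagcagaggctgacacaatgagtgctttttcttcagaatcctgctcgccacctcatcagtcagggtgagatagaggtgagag
Ldb1, chr19:46045262-46045434, minus strand: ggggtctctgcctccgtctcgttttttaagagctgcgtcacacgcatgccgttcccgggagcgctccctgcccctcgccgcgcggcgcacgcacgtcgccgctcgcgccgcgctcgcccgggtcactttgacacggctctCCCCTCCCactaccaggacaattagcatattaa
Ncoa4, chr14:32165547-32165838, plus strand: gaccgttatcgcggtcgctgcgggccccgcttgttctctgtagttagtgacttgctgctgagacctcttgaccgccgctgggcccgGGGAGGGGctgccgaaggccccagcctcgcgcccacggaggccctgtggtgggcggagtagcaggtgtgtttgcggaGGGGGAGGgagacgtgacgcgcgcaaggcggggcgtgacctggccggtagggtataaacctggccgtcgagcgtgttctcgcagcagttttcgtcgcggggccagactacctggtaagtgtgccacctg

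The Cmip stretch lay wholly under a region of 1496 bp, centred 92.4 kb into the gene, and its 6 overlapping CCNCNCCC matches stand in 1 pyrimidine-rich run. Cmip encodes a signalling adaptor. The Gata2 stretch is at the internal start of a haematopoietic transcription factor gene that is active before terminal red cell maturation, and the region there, 508 bp wide, was the only EKLF region of either list in the gene body. It held 6 CCNCNCCC matches, in 2 G-rich runs, and 1 match to CCNNGCCC, a sequence described for the Nan zinc finger. The Sox6 stretch, under a region of 507 bp, held 1 AGATAA on the printed strand and, after it, 1 CCNCNCCC match on the other strand. Sox6 encodes a repressor of embryonic globin genes. The Bcl2l1 stretch held 1 AGATAA, 1 CCNNGCCC match and 0 CCNCNCCC matches, and its region was 278 bp wide. Bcl2l1 encodes the survival protein BCL-XL. Ldb1 encodes a bridging cofactor of the GATA1-TAL1 complex, and its stretch held 1 match each to CCNCNCCC and CCNNGCCC. Ncoa4 encodes the receptor that delivers ferritin for breakdown, and its stretch held 2 CCNCNCCC matches and 1 CCNNGCCC match.

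Across the 105 start windows that these regions overlapped, 74.3% held CCNCNCCC (95% interval 64.8 to 82.3), 68.6% held CCNNGCCC (58.8 to 77.3) and 7.62% held AGATAA (3.35 to 14.5), on either strand. The shares over all 32619 start windows of the same length were 49.8%, 40.6% and 11.2%, and over the 6671 internal ones 46.9%, 37.9% and 11.4%. CCNCNCCC and CCNNGCCC can match the same bases, and 60 of the 105 windows held both. Windows under WT-only regions inside genes had close values, 72.5%, 63.9% and 8.2%. The median GC content was 62.7% in the windows under these regions, 63% under WT-only regions and 52% in internal windows as a whole, and its part in the motif shares was not tested. In the covered bases alone, 54 of the 89 regions had a CCNCNCCC match, 51 a CCNNGCCC match and 4 an AGATAA match. A match is a description of the letters and not a measured binding site.

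Of the 15559 Nan/+ regions on chromosomes 1 to 19 and X, 13278 (85.3%) overlapped no WT region. Of these, 5147 were above the narrowest width, and 3051 of the 5147 (59.3%) met the position rule. Their median width was 251 bp (quartiles 225 and 305 bp) and the widest measured 1973 bp. The narrowest of them measured 219 bp. Just outside the rule stood 5078 Nan-only regions inside genes, called narrow here, which shared the minimum width of the list, and no Nan/+ region had a width in between. Above 300 bp there were 798 regions, and above 500 bp 134, or 4.39%. WT-only regions inside genes had a median of 326 bp, with 19.9% above 500 bp, but the authors called the lists with different size settings, so widths were not compared between lists.

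The 12 widest regions lay in 8 genes, and 7 of the 12 were on chromosome 8. The widest of all, at 122295145 to 122297117 on chromosome 8 (mm10), measured 1973 bp and lay in Zfpm1, which encodes FOG1, the cofactor of GATA1. The nearest WT region was 216 bp away. Zfpm1 held a pair of others among the 12, which were 1523 and 1270 bp wide. Cpeb4, which encodes a repressor of translation with a known part in late red cell maturation, held regions of 1555 bp (chromosome 11, 31911458 to 31913012) and 1242 bp. Cmip held regions of 1496 and 1311 bp, Ank1, encoding ankyrin of the red cell skeleton, 1 of 1445 bp, and Gse1, encoding a protein of histone demethylase complexes, 1 of 1272 bp. The others lay in Il12rb2, an interleukin 12 receptor gene (1355 bp), Tspan32, a tetraspanin gene (1323 bp), and Larp4b, which encodes an RNA-binding protein (1282 bp). Of the 12, 5 had a WT region within 1 kb and 5 had none within 5 kb.

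Positions along 4 of these genes were compared next. In Zfpm1, 56 kb long, 10 of the regions were interleaved with 9 shared and 9 WT-only ones, and all 10 had a WT region within 10 kb. The 4 of them above 1000 bp were centred from 14.3 to 22.1 kb from the 5′ end, a stretch with 2 shared and 0 WT-only regions. Cmip, 204 kb long, held 29 of the regions against 9 WT regions in all, and 17 of the 29 formed 1 group between 117338603 and 117385769 on chromosome 8, with each within 12500 bp of the next and 4 WT regions in the same span. Gse1, 353 kb long, held 32 against 26 WT regions. Near its 3′ end, 9 of the 32 formed a group of 26.3 kb (120539973 to 120566243) with 0 WT regions inside. Cpeb4, 65.5 kb long, held 9, against 4 WT regions.

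**Figure D1:**
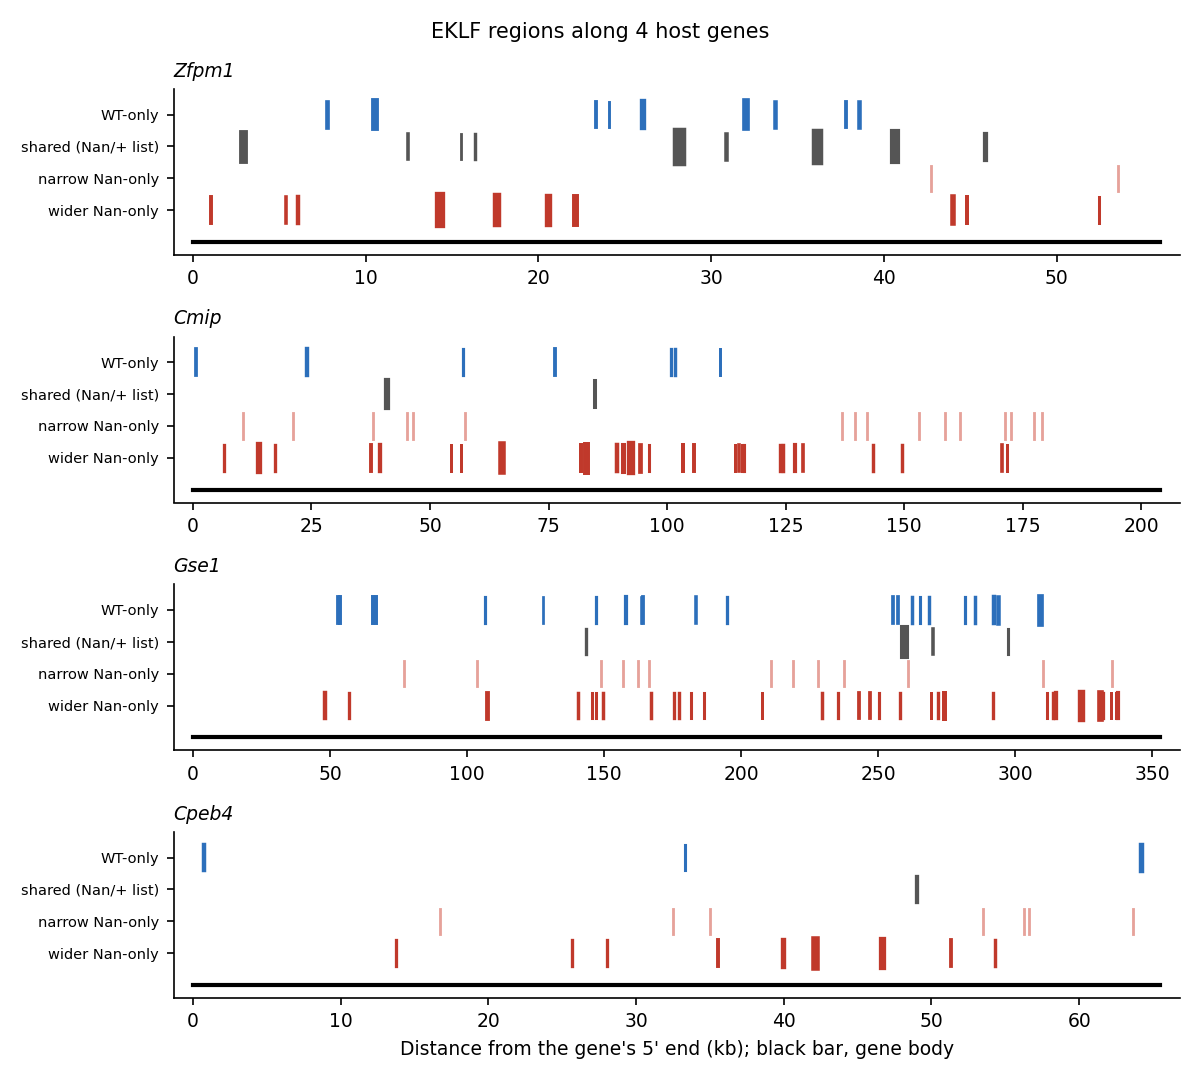
EKLF regions along Zfpm1, Cmip, Gse1 and Cpeb4, by distance from the 5′ end of the gene in kb. Each tick is the centre of 1 region, thicker ticks are wider regions, and rows separate wider Nan-only, narrow Nan-only, shared and WT-only regions; Cmip shows 29 wider Nan-only and 7 WT-only ticks.

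Regions of great width were unevenly spread over chromosomes. Of the 134 above 500 bp, 30 (22.4%, 95% interval 15.6 to 30.4) lay on chromosome 8, against 1 to 13 on each of the other 19 chromosomes. Most of the 30 lay in a few genes and are not independent, so this interval is too narrow. Chromosome 8 held 6.85% of the 3051 regions, 6.82% of the WT-only regions inside genes that were above 500 bp, and 5.18% of the narrow Nan-only regions. Of the 19 regions above 1000 bp, 11 were on this chromosome. The 5 genes Cmip, Gse1, Zfpm1, Cbfa2t3 and Ankrd11, which lie between 117257019 and 123042284, held 93 of the 209 chromosome 8 regions and 24 of the 30 above 500 bp. Without them and Ank1, 4 of 106 chromosome 8 regions (3.77%) were above 500 bp. Those 5 genes also held 6, 22, 9, 5 and 3 WT-only regions inside genes, in the order above, the widest of 1382 bp. From 120 to 130 Mb lay 87 of the regions, with 58 WT-only and 20 shared regions inside genes. From 110 to 120 Mb the numbers were 45, 13 and 4. On this chromosome each set was most frequent from 120 to 130 Mb, so gathering there is not particular to these regions. Klf1, at 84901982 to 84905291 on the same chromosome, held 0 of the regions, and 1 shared Nan/+ and 3 WT regions. This concentration was chosen for description after the data were seen and was not tested.

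**Figure D2:**
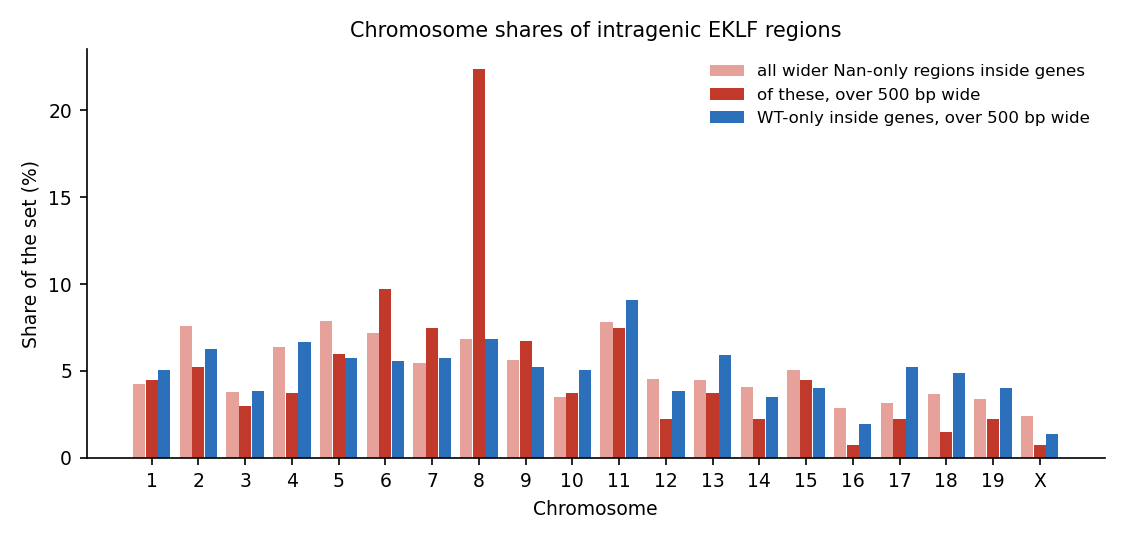
Share of each set, in percent, on each chromosome, for all 3051 wider Nan-only regions inside genes, for the 134 of them above 500 bp, and for WT-only regions inside genes above 500 bp. Chromosome 8 holds 22.4% of the 134 but 6.85% of all 3051 and 6.82% of the wide WT-only regions.

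Host genes were counted next. The regions fell in 1708 of 21523 protein-coding genes, a background share of 7.94%, with 3020 regions in 1 gene and 31 in 2 overlapping genes. A single region was found in 1172 hosts (68.6%), whereas 22 hosts held 10 or more, and those 22 took in 329 of the regions, or 10.8%. Regions above 300 bp fell in 532 genes. Of the 10 genes with the most, 9 are described: Gse1 (32), Cmip (29), Hipk2 (20), Gng2 (18), Fars2 (17), Med13l and Sox6 (16 each), Vps13b (15) and Cbfa2t3 (14). Hipk2 encodes a nuclear kinase, and its regions spanned the gene from 7.53 to 188 kb from the 5′ end. Gng2 encodes a G protein subunit and held 18 of the regions and 6 narrow ones with 0 WT regions. Its 18 formed 1 group of 69.3 kb (chromosome 14, 19877868 to 19947188), the largest such group in number. Fars2 encodes a mitochondrial tRNA synthetase, Med13l a Mediator subunit and Vps13b a lipid-transfer protein, with 9, 13 and 9 WT regions. Cbfa2t3, encoding the TAL1-complex corepressor ETO2, had the highest density of these 9, at 18.9 regions per 100 kb, and 1 narrow Nan-only region.

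**Figure D3:**
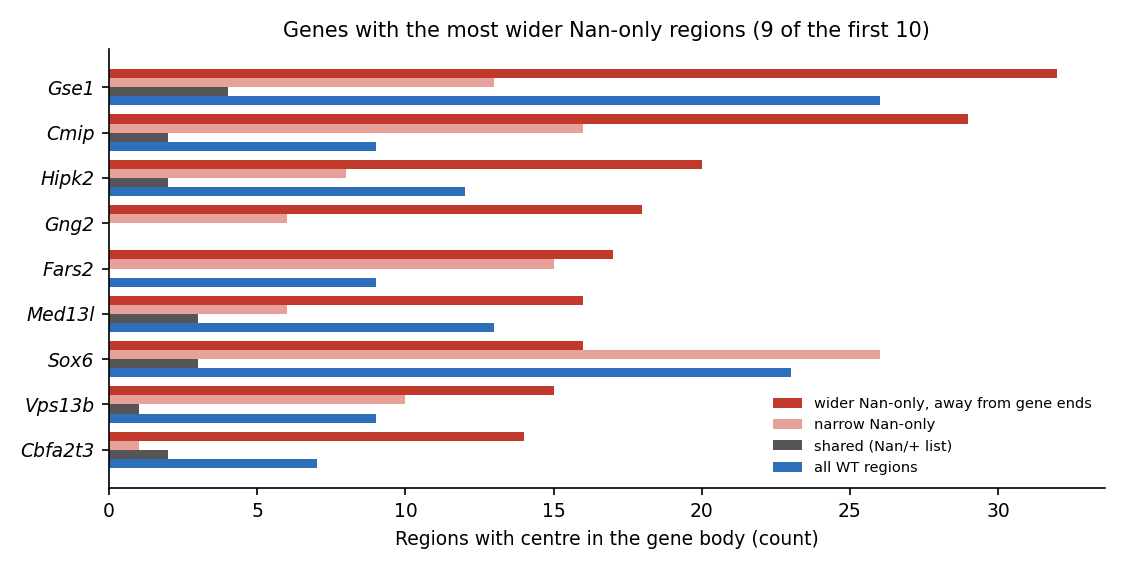
Number of regions with their centre in the gene body for 9 of the 10 genes with the most wider Nan-only regions, split into wider Nan-only, narrow Nan-only, shared and all WT regions. Gse1 leads with 32 wider Nan-only regions, and Gng2 has 18 with no WT region.

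Up to 300 kb, longer genes were hosts more often. The median length of a host was 70.8 kb (95% interval of the median 67.3 to 75), against 17.4 kb over all protein-coding genes and 54.5 kb (50.7 to 58.1) for hosts of WT-only regions inside genes. Hosts of narrow Nan-only regions inside genes had a close median, 71.4 kb (68.5 to 75.2), so this length is not particular to the wider regions. Of genes up to 10 kb long 0.742% were hosts, of genes from 10 to 30 kb 4.89%, from 30 to 100 kb 14.3%, from 100 to 300 kb 26.4% and above 300 kb 22.6%. WT-only regions inside genes gave 1.39%, 6.79%, 13.9%, 21.5% and 17.4% in the same classes. Counted per length, genes from 30 to 100 kb held 4.12 of the regions per Mb and genes above 300 kb 1.06. The rule keeps centres over 1 kb from gene ends, which leaves little room in short genes.

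**Figure D4:**
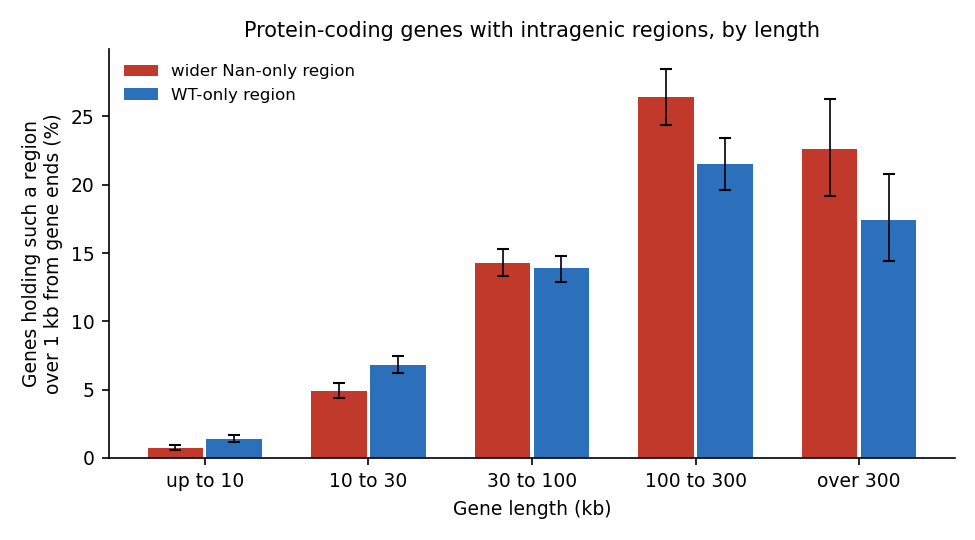
Percent of protein-coding genes in each length class that hold a wider Nan-only region or a WT-only region over 1 kb from gene ends; bars give the share and lines its exact binomial 95% interval. Both shares are highest between 100 and 300 kb, at 26.4% and 21.5%.

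Hosts often held WT regions elsewhere in their body. A WT region was present in 903 of 1708 hosts (52.9%, 95% interval 50.5 to 55.3), against 18.1% of all protein-coding genes. The same was seen within length classes. In genes from 30 to 100 kb 55.1% of hosts (51.3 to 58.7) and 20.8% of other genes (19.6 to 22) had a WT region, and in genes from 100 to 300 kb the shares were 59.6% and 17.4%. Starts of transcription, internal ones included, were counted too. In 1355 hosts with an entry in the RefSeq start table, 48.3% had a WT region within 1 kb of a start (45.6 to 51) and 22.8% a shared region (20.6 to 25.1), against 22.7% and 9% over 17274 protein-coding genes. These shares were not split by gene length, and hosts are longer than genes in general. Among 1399 hosts of WT-only regions inside genes, 21.4% had a shared region there (19.3 to 23.7), so that share is not particular to these hosts. Nan/+ regions as a whole are not set side by side here, because they include the regions that made a gene a host.

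The distance to the nearest WT region had a median of 20.3 kb. Of the regions 6.39% had a WT region within 1 kb, 33.8% within 10 kb (95% interval 32.1 to 35.5) and 82.5% within 100 kb. Narrow Nan-only regions inside genes lay farther from WT regions, with a median of 31.4 kb and 24% within 10 kb (22.8 to 25.2). These were counted over regions that cluster, so the intervals, which cover counting error only, are too narrow. Another region of the same kind lay within 12500 bp of 37.1% of the regions (35.4 to 38.8), compared with 30.9% for narrow Nan-only and 39.6% for WT-only regions inside genes, sets that differ in size. Grouped at that distance, the regions formed 2332 groups, of which 1919 held a single region and 33 held 5 or more.

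Along the host gene the regions were most frequent in the middle part and least in the 3′ part. In 2397 regions with a single host of known strand, 33.9% lay in the 5′ part of the gene when it is cut into 3 equal parts (95% interval 32 to 35.9), 37.8% in the middle part (35.9 to 39.8) and 28.3% in the 3′ part (26.5 to 30.1). Narrow Nan-only regions had 33.3%, 36.7% and 30%. WT-only regions inside genes were more frequent in the 5′ part, at 42.3% (40.3 to 44.4), and shared ones more so, at 54.6% (49.9 to 59.3). The median distance from the 5′ end was 40.9 kb for these regions, 24.5 kb for WT-only and 12.8 kb for shared ones. None of these differences between sets was tested, because regions are not replicates.

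**Figure D5:**
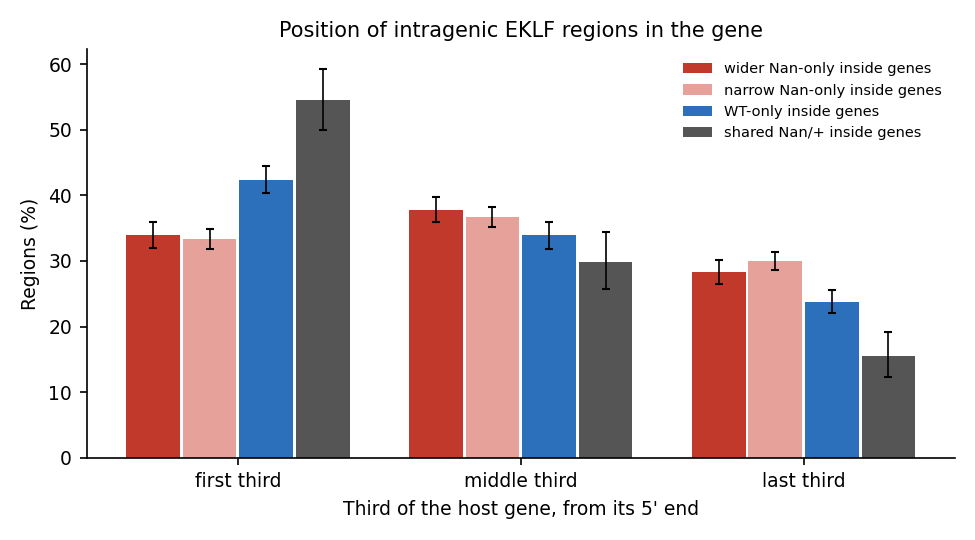
Percent of intragenic EKLF regions in the 5′, middle and 3′ part of their host gene, for wider Nan-only, narrow Nan-only, WT-only and shared regions, with exact binomial 95% intervals. Wider Nan-only regions hold 33.9%, 37.8% and 28.3%, while shared regions fall from 54.6% to 15.5%.

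Gene lists were read against the 7.94% of all protein-coding genes that were hosts, and against the share in the length class of the list's median gene. That share was 4.89% for medians from 10 to 30 kb and 14.3% from 30 to 100 kb. It is a rough reference only and not the share expected of a list, because each list mixes genes of many lengths. In the erythroid factor list, hosts such as Sox6 (570 kb) and Runx1 (225 kb) were far longer than its median gene. Lists with medians just above 30 kb also take the higher reference by a small margin. Of 404 listed genes 110 were hosts, or 49 when only regions above 300 bp counted. Erythroid transcription factors and cofactors, at a median of 24 kb, had 20 hosts of 37 genes (54.1%, 95% interval 36.9 to 70.5), with 70 regions. Sox6 held 16, Cbfa2t3 14, Zfpm1 10, Runx1, a regulator of blood stem cell formation and platelets, 9, and Kat6a, a histone acetyltransferase gene, 4. Runx1 had 6 WT regions, 0 of them shared, and the Nan-only regions lay from 78.3 to 223 kb from its 5′ end. In the same list 21 genes held a WT-only region over 1 kb from gene ends, against the 20 hosts.

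Red cell membrane and skeleton genes, at a median of 30.1 kb, had 14 hosts of 36 (38.9%, 23.1 to 56.5). Epb41, encoding protein 4.1, held 12 of the regions, none above 500 bp, with 16 WT regions. Ank1 held 10 with 32 WT regions, and each of the 10 had a WT region within 10 kb. Sptb, encoding beta-spectrin, held 6, of which 2 had a WT region that near. Tmod1, encoding the actin-capping tropomodulin, held 3.

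Heme and iron genes, at a median of 20 kb, had 12 hosts of 33 (36.4%, 20.4 to 54.9). Fech, encoding the enzyme that inserts iron into the heme ring, held 4 regions, the widest of 807 bp, and all 4 had a WT region within 10 kb. Abcb10, a mitochondrial transporter gene needed for heme synthesis, held 3. Alas2, the erythroid gene of the first enzyme of the pathway, held 2, of 219 and 345 bp, between 5.86 and 7.52 kb from the 5′ end. Uros, encoding a later enzyme, and Abcg2, a porphyrin exporter gene, held 2 each.

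Genes of erythropoietin and Kit signalling had 13 hosts of 36, with at most 3 regions in any gene. Their median length was 57.1 kb, a class in which 14.3% of all genes were hosts. Plcg2, encoding a phospholipase, held 3 and Stat5b, encoding a transcription factor downstream of the erythropoietin receptor, 2, and neither had a WT region. Inpp5d, encoding the phosphatase SHIP, held 3 and had 2 WT regions. Igf1r, a growth factor receptor gene, held 3. Cell cycle genes were at 3 hosts of 35 (8.57%, 95% interval 1.8 to 23.1), near the background: Ccnd3, encoding the cyclin that sets the number of red cell divisions, held 3, and Mxi1 and Cdk6 1 each.

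Chromatin and elongation genes followed. Acetyltransferase and chromatin genes had 17 hosts of 39, against 14.3% among all genes from 30 to 100 kb, the class of their median length of 65 kb. They were led by Arid1b, a SWI/SNF subunit gene, with 11 regions, Tet3, encoding a DNA demethylase, with 5, Ncor1, a corepressor gene, with 4 and Chd7, a remodeller gene, with 3. Pol II pausing and elongation genes, at a median of 30.7 kb, had 7 of 37 (18.9%, 7.96 to 35.2), with Med13l at 16, Aff1, a super elongation complex gene, at 5, Ell2, another, at 3 and Aff4 at 2. Enucleation, autophagy and organelle clearance genes, at 33.6 kb, had 11 of 34, with Cit, encoding a kinase of cell division, at 4 and Fbxo7, a ubiquitin ligase gene, at 2. Regulators of actin and small GTPases had 14 hosts of 36. Their median length was 188 kb, so the share of 26.4% among all genes from 100 to 300 kb is the closer reference. Cmip led them, followed by Mical3, which acts on actin, at 6 and Arhgef12, a GTPase activator gene, at 4.

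Markers of other cell types were counted the same way. Macrophage, lymphoid and stem cell, and housekeeping genes, with 15 genes each, had 0 hosts (95% interval up to 21.8%), as did 11 endothelial genes (up to 28.5%). These intervals include the 7.94% over all genes, so lists of this size cannot show a lower share. Megakaryocyte genes had 5 hosts of 25 (20%, 6.83 to 40.7), namely Runx1, Etv6, Fli1, Gfi1b and Cd9, with 9, 2, 2, 1 and 1 regions. The last 4 had no WT region in the gene body. Of the hepatoblast markers 1 of 16 was a host, Afp, the fetal serum protein gene, with 2 of the regions, 4 shared Nan/+ regions and 2 WT regions. A list of short genes, such as the housekeeping genes at a median of 5.4 kb, leaves little room for a region over 1 kb from gene ends.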

How the data were processed

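EKLF ChIP-seq regions of WT and Nan/+ E13.5 fetal liver were used, 3 libraries per genotype in 1 list. Per the file headers, the authors called regions with HOMER on mm10 against 2 input libraries per genotype (1 used for 2 ChIP libraries), with cut-offs of q 0.01 and fold 4, then kept those that DESeq2 called over input (FDR 0.01, log2 ratio 2). Size and minimum distance, per the file headers, were 175 and 300 bp for Nan/+ and 125 and 250 bp for WT. Alignment tools in the submitters' processing notes include Bowtie2 2.1. The score deposited by the authors was 1 in every row. Tags per library come from the file headers.

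BED intervals are printed counted from 1. Genes came from RefSeq GRCm38.p6: 21523 protein-coding genes on chromosomes 1 to 19 and X, leaving out those placed below 3 Mb, where alternate loci are listed. Strand came from the RefSeq start table, which has no entry on chromosome 18 and has entries for 17274 of the 21523 genes. It gives no exons. Shares carry exact binomial (Clopper-Pearson) 95% intervals, which cover counting error only. Computation used Python 3.11.15, pandas 2.3.3 and scipy 1.17.1, and the region rules were checked on simulated lists. No test between genotypes was possible.

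Members and lists were chosen with earlier results of these data known. All 421 list entries matched a gene. Named were the 12 widest regions and their hosts, the 10 genes with the most regions, and up to 5 hosts per list by number of regions. Some genes that meet this rule are not reported here. Other genes (those with printed sequences, Ankrd11, Klf1, and those in the other observations) were named after their values were seen. The planned motif search over whole regions needs a genome and was not run, so start windows replaced it.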

Additional observations from a re-analysis of the deposited data

How the results depend on the processing

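No paired analysis was possible because the 3 libraries of a genotype were called together as a single list, and for the same reason no library could be left out. Of 60 alternative values, 35 stayed within the interval of the main value, or within 1.5 times for counts. This includes the chromosome 8 share of regions above 500 bp (18.8% to 26.9%). Its alternatives, like those of the start windows, were chosen after seeing the data. Among them, width above 300 bp could not change a share counted above 500 bp, so it is no check, though it is counted in the 35. With width above 300 bp there were 798 regions in 532 hosts, 49 of them listed, at a median width of 368 bp. Then 51.5% of wider Nan-only regions met the position rule, the median host was 76.9 kb long, 62.2% of hosts had a WT region, 42.9% of regions had a WT region within 10 kb, 36.1% lay in the 5′ part, 26.8% had another region within 12500 bp and 6.64% lay over a start. With centres over 5 kb from gene ends, the same order of measures from the position rule on gave 48.9%, 89.8 kb, 56.7%, 30.3%, 29.9%, 39.5% and 1.81%. With Nan-only regions over 1 kb from WT regions, 60.6% met the position rule, 29.3% had a WT region within 10 kb and 34.4% another region within 12500 bp. The position rule gave 57.4% with no WT centre within 250 bp and 60.7% with genes of every type, whose median host was 64.6 kb; counting each region once it was 98.3 kb. Motif searches over whole regions were not run, and length classes stand in the report. Strength per region was not used, so regions near the WT threshold are not separated from regions with no WT signal.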

Other observations

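Hosts with no WT region in the gene body numbered 805 of 1708 (47.1%, exact binomial 95% interval 44.7 to 49.5). A WT region was present in 52.9% of hosts but in 18.1% of all protein-coding genes, so hosts lacked one less often than genes in general. After Gng2, with 18 of the wider Nan-only regions, the most were in Kmt2c, a histone H3K4 methyltransferase gene, with 11, and in Dock4, a GTPase activator gene, and Tle4, a corepressor gene, with 8 each. Dgat2, encoding an enzyme of triglyceride synthesis, held 6 in a gene of 29.1 kb, or 20.7 per 100 kb. Among hosts with WT regions, Kdm6a, an X-linked histone demethylase gene, held 13 of the regions with 2 WT regions, and Picalm, encoding a clathrin adaptor used in transferrin receptor uptake, held 11, each with a WT region within 10 kb.

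Long non-coding RNA (lncRNA) genes were looked at last. A lncRNA end lay within 1 kb of 52 of the 3051 region centres (1.7%, 95% interval 1.28 to 2.23) and of 1.63% of narrow Nan-only regions inside genes (1.3 to 2.02), against 4.03% of WT-only (3.34 to 4.81) and 8.04% of shared regions inside genes (5.92 to 10.6). Of the 3051 centres 130 (4.26%, 3.57 to 5.04) lay inside a lncRNA gene, against 4.47% of narrow Nan-only and 6.25% of WT-only regions. These differences were not tested.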
